A study of Mus musculus with 16 samples.

Results

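The genes described here mark the passage between an epithelial and a mesenchymal state: the cadherins Cdh1 and Cdh2, the transcription factors Snai1, Snai2, Zeb1, Zeb2, Twist1, Prrx1 and Prrx2, and the cytoskeletal protein Vim. The members were all probes annotated to these 10 symbols. They came to 16 probes of 8 genes, out of 25697 probes and 16593 named genes on the array. Snai2 and Prrx2 had no annotated probe and were not analysed here. Of the 16 probes, 11 were above background on at least 6 of the 16 arrays and were tested, and they covered all 8 genes.

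Total RNA of whole pituitary glands from mouse embryos at embryonic day 17.5 was hybridised to Illumina expression bead arrays, 1 array per sample. The 6 mutants carried the genotype Insm1 -/- and the 10 controls the genotype Insm1 +/-, so the controls also carried 1 mutant allele. Both groups shared a mixed background, labelled C57/BL6;129Ola mixed. Whether each sample came from 1 embryo or several is not stated, and the tests therefore cover only the spread among these arrays.

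During an epithelial to mesenchymal transition, cells give up junctions built on E-cadherin (Cdh1), often gain N-cadherin (Cdh2), and reorganise their filaments around vimentin (Vim). Repressors of the Snail, Zeb and Twist families drive the process by silencing Cdh1 and other epithelial genes, the Snail and Zeb proteins through E-box letters in their promoters. Insm1 itself is a zinc finger repressor of endocrine cells that shares with the Snail proteins an N-terminal SNAG domain, which recruits histone-modifying corepressors. In the pituitary, epithelial progenitors lie around the cleft of the gland, and cells that differentiate leave this layer and enter the parenchyma. The design asks how loss of Insm1 alters gene expression in this tissue.

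The start regions of 4 genes are shown because the repressors among the members read such letters. Snai1 and Zeb2 are a Snail and a Zeb factor, and Cldn4 and Cldn6 encode claudins of epithelial tight junctions. Each window runs from 250 bases before to 50 bases after the RefSeq start (GRCm38.p6), 5′ to 3′ on the strand of the gene. Capitals mark the E-box CAGGTG, which reads CACCTG on the other strand.
Snai1, chr2:167537945-167538244, plus strand: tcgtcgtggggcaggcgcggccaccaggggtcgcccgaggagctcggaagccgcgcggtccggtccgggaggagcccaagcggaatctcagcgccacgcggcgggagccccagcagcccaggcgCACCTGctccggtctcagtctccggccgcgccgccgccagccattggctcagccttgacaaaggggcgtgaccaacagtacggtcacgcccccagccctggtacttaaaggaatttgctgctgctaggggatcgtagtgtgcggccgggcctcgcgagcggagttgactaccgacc
Zeb2, chr2:45117393-45117692, minus strand: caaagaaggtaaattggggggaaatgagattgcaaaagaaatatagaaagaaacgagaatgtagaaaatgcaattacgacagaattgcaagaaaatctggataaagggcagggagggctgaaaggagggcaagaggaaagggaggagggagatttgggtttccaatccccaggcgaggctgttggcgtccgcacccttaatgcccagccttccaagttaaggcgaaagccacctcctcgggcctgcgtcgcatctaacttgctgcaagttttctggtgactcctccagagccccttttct
Cldn4, chr5:134946885-134947184, minus strand: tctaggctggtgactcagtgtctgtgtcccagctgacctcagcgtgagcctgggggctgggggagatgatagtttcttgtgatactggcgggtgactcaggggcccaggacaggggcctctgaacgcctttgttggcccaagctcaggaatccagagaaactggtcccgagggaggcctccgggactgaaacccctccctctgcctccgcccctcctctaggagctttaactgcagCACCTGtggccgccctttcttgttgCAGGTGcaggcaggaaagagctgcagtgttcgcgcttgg
Cldn6, chr17:23679115-23679414, plus strand: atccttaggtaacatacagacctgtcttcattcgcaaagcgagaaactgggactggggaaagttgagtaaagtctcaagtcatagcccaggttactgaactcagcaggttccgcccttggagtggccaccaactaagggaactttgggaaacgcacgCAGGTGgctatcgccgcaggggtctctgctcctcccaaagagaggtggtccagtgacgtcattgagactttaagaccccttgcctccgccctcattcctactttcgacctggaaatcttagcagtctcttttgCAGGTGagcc

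The Snai1 window held 1 such E-box, beginning 126 bases before the start. The Cldn4 window held 2, beginning 14 bases before and 11 bases after the start, and the Cldn6 window held 2, beginning 93 bases before and 40 bases after it. The Zeb2 window shown held 0, as did those at its 3 other annotated starts. Windows were found for 6 of the 10 members, and 1 of the 6, that of Snai1, held the E-box. Cdh1, Cdh2, Snai2 and Zeb1 had no window, so the start region of Cdh1 could not be searched. A match describes letters in this window and does not show binding.

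Of the 27025 genes with a window, 22.6% had the E-box in at least 1 window, and of the genes tested on these arrays 22%. Among 23 genes of epithelial junctions, keratins and other epithelial proteins with a window, 19 (82.6%) held it, Epcam, Ocln, Krt8 and Krt18 among them. Of the 13 Snail and Zeb corepressors and regulators with a window, 1 held it, and of 15 mesenchymal genes, 1 (6.67%). The letters were about as frequent in genes called higher in mutants (23.7%) as in all genes tested, and stood in 26.6% of those called lower. With each gene given by its window of highest GC content, the median GC content was 62.3% for the 23 epithelial genes and 62% for all genes tested.

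All levels below are log2 intensities after background correction and quantile normalisation, changes are mutant minus control, and ± gives the SD. A gene was called when its adjusted p in limma's fit across all 13813 kept probes was under 0.05, and each gene is given by its brightest kept probe unless stated. Array medians of the raw intensity ranged from 96.5 to 132, and 12892 to 14156 probes per array were above background. The Insm1 probe gives no check of the genotype labels, since it was higher in mutants (11.78 ± 0.23, n = 6) than in controls (11.42 ± 0.18, n = 10) and its place relative to the altered part of the gene is not given. Of 9 markers of pituitary endocrine cells, 9 were called lower in mutants, against 14% of all genes tested. The arrays fall into 2 sets by the number that opens their sample names, and these sets are read here as 2 slides. Slide 1 held 4 mutants beside 4 controls, slide 2 held 2 mutants beside 6 controls, and changes of the 8 genes and calls of most gene groups are also given by slide. Control 10 stood apart from the other controls on the first principal component (-2.42 against 18.19 to 26.83).

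Of the 8 genes, 3 were called higher in mutants (Zeb2, Cdh2 and Vim), 1 was called lower (Prrx1), and Cdh1, Snai1, Zeb1 and Twist1 were not called. Over the whole array, 15.9% of the 9682 genes passed with mutants higher and 14% with mutants lower (29.9% in either direction), and these counts alone do not set the 8 genes apart. The median change of the 8 genes was 0.33, against 0.033 for all genes. Without control 10 the counts were again 3 (16.1% of all genes) and 1 (14.3%). On slide 1 alone 4 of the 8 were called higher (8.4% of all genes) and 0 lower (9.75%), and on slide 2 alone 1 higher (2.77%) and 0 lower (4.95%). With the slide as a block, 3 were called higher (15.8%) and 1 lower (14.5%), with Cdh1 in the place of Vim among the 3. In bulk RNA, fewer cells of a type and less RNA per cell cannot be told apart, and this holds for every result here.

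**Figure D1:**
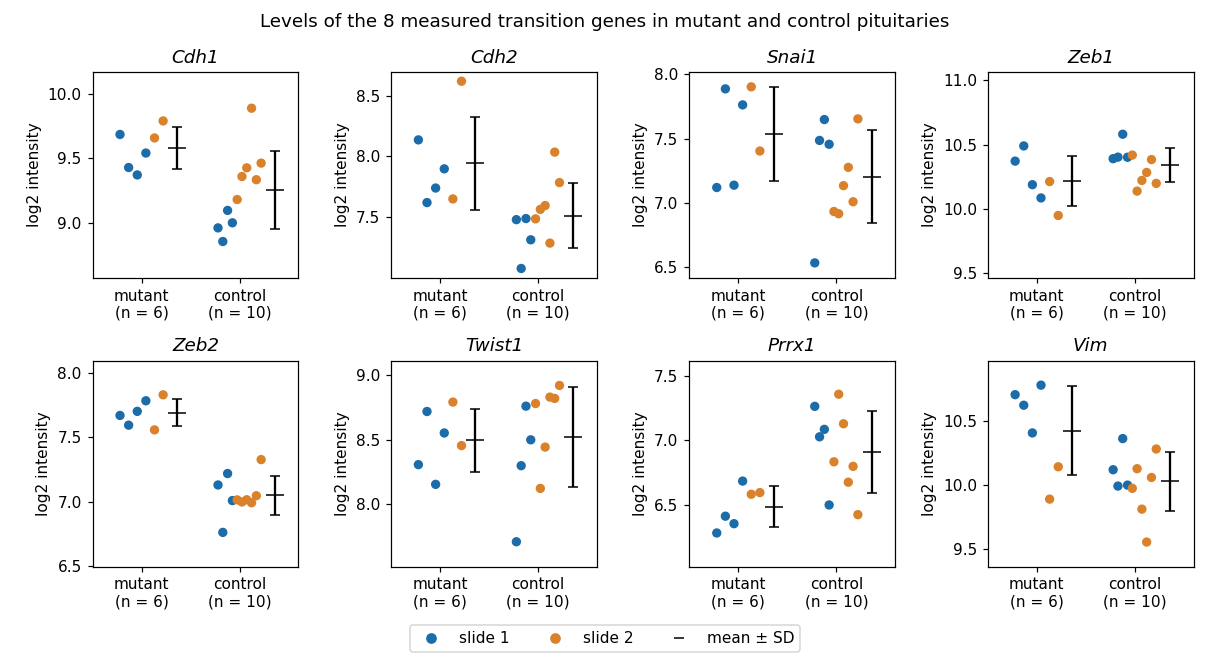
Log2 intensity of the 8 measured genes (y axis) in each of the 6 mutant and 10 control arrays, coloured by slide, with the mean and SD of each group in black. Zeb2 is the 1 gene whose groups do not overlap, Cdh1 is low in the slide 1 controls, and the 4 slide 1 mutants hold the highest Vim levels.

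The means of both cadherins were higher in mutants, and Cdh2 alone passed the threshold. Cdh1, the adhesion molecule of epithelia, ranged from 9.37 to 9.79 in mutants with a median of 9.60, and from 8.85 to 9.89 in controls with a median of 9.26. All 6 mutants lay above the control median, while control 8 lay above every mutant. The change was 0.32 (SE 0.13, 95% interval 0.053 to 0.594), which missed the threshold (limma adjusted p = 0.0702).

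Control levels of Cdh1 were 8.98 ± 0.10 (n = 4) on slide 1 and 9.44 ± 0.24 (n = 6) on slide 2, and the ranges of these controls did not overlap. With the slide as a block Cdh1 was called, at 0.42 (SE 0.097, limma adjusted p = 0.00325). On slide 1 the change was 0.53 (limma adjusted p = 0.00656), with mutants from 9.37 to 9.68 and controls from 8.85 to 9.09. On slide 2 it was 0.28 and missed the threshold (limma adjusted p = 0.352). Without control 8 the change over both slides was 0.39 and was called (limma adjusted p = 0.00912).

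Cdh2, the cadherin of neural and mesenchymal cells, which many endocrine cells also use, ranged from 7.62 to 8.62 in mutants with a median of 7.82. In controls it ranged from 7.08 to 8.04 with a median of 7.49. All 6 mutants lay above the control median and 2 of them above every control. The change was 0.43 (SE 0.15), a 1.35-fold rise (limma adjusted p = 0.0391). On slides 1 and 2 alone it was 0.51 each time, called on slide 1 (limma adjusted p = 0.0324) and not on slide 2 (limma adjusted p = 0.264).

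The Cdh2 call was a narrow one. It was lost without mutant 1, 4 or 6 or control 1, 2, 3, 4, 5, 6 or 8, 10 of the 16 arrays left out in turn, with changes from 0.30 to 0.44 and limma adjusted p-values from 0.0511 to 0.103. Of the 3 other Cdh2 probes, ILMN_1247861 was above background on every array and changed by 0.30 (limma adjusted p = 0.177). The other two were above background on 1 and 4 of 16 arrays and were not tested.

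Whether the 2 cadherins changed unequally was tested on the log2 difference between their probes within each array. The difference changed by 0.11 from controls to mutants (SD 0.28 in mutants and 0.34 in controls), which was within the spread between arrays (two-sided exact permutation test over 8008 splits, p = 0.552). On slide 1 it was -0.021 (exact p = 0.8) and on slide 2 it was 0.23 (exact p = 0.571), of opposite sign and neither past the threshold. A shift from Cdh1 to Cdh2 was not detectable with these arrays.

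The other cadherins changed in both directions. Of 11 tested, 2 were called higher (15.9% of all genes) and 3 lower (14%), with a median of 0.012. Cdh3 (P-cadherin, found in basal layers of epithelia) had a mean of 7.75 ± 0.20 in mutants against 6.66 ± 0.28 in controls, and rose by 1.10 (SE 0.13, limma adjusted p = 2.95e-06). Cdh4 (R-cadherin) was lower in mutants, with a fitted difference of -0.83 (limma adjusted p = 0.00017). Since 1 of the 6 mutants and 9 of the 10 controls were above background, the size of this difference rests on mutant values mostly at background. Cdh22, a cadherin of neural and endocrine tissue, was above background on 10 control and 0 mutant arrays and fell at least 1.57-fold (limma adjusted p = 0.000679). The bound sets the control mean against the lowest level of any detected probe on each mutant array. Cdh6 was also called higher (0.40), with 5 of the 6 mutants and 2 of the 10 controls above background. Cdh8 was called lower (-0.57), with 2 of the 6 mutants and 9 of the 10 controls above background, and it lost this call with the slide as a block (-0.43, limma adjusted p = 0.0753). Slide 1 alone gave 2 calls higher (8.4% of all genes) and 2 lower (9.75%) among the 11. Slide 2 alone gave 1 higher (2.77%) and 2 lower (4.95%). The 2 lower on slide 2 were Cdh4 and Cdh13 (-0.75, limma adjusted p = 0.0121), and Cdh22 was not called there (-0.83, limma adjusted p = 0.2145). Cdh13 was not called over all arrays (-0.33, limma adjusted p = 0.0842), but was with the slide as a block (-0.38, limma adjusted p = 0.047).

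Zeb2 had the clearest change among the 8 genes. This zinc finger and homeodomain repressor binds E-boxes and also acts in neural crest, neurons and tissue macrophages. Its level ranged from 7.56 to 7.83 in mutants with a median of 7.69, and from 6.76 to 7.33 in controls with a median of 7.01. The lowest mutant lay above the highest control, which was control 10. Zeb2 was the 1 gene of 8 whose groups did not overlap with mutants higher, against 3.94% of all genes tested. None of the 8 lay wholly lower in mutants, against 5.26%.

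The rise of Zeb2 was 0.64 (SE 0.077, 95% interval 0.476 to 0.801), or 1.56-fold (limma adjusted p = 5.73e-06). It was 0.66 on slide 1 (limma adjusted p = 0.00334) and 0.63 on slide 2 (limma adjusted p = 0.0189). Leaving out each array in turn moved it between 0.61 and 0.67, and every such fit called it. A second Zeb2 probe (ILMN_2419650) was above background on 0 arrays and was not tested.

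Markers of macrophages, which express Zeb2, were also mostly called higher in mutants. Of 5 tested, 4 were called higher (Tyrobp 0.58, Aif1 0.49, C1qb 0.46 and C1qa 0.39), against 15.9% of all genes, with a median of 0.46. The other, Cx3cr1, was not called (0.23, limma adjusted p = 0.194). The intensities of the 5 summed to between 1251 and 1584 in each mutant and to between 905 and 1271 in each control, so the ranges overlapped. Fcer1g was too dim to be tested. On slide 1 alone 2 of the 5 were called higher (8.4% of all genes), and on slide 2 alone 0 by limma (2.77%). The medians were 0.33 and 0.43. Of 5 neuron markers, 2 were called lower (Gap43 -0.91 and Elavl4 -0.39), against 14% of all genes. The part of either cell type in the Zeb2 rise was not tested.

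Zeb1, the paralogue of Zeb2 and a classical repressor of Cdh1, did not rise with it. It was bright in both groups, from 9.95 to 10.49 in mutants with a median of 10.20 and from 10.14 to 10.58 in controls with a median of 10.39. Of the 6 mutants, 5 lay below the control median and 2 below every control. The change was -0.13 (SE 0.085, 95% interval -0.303 to 0.052) and was not called (limma adjusted p = 0.301). It was -0.16 on slide 1 and -0.19 on slide 2, neither of them called.

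Snai1, the founding Snail repressor of Cdh1, read 7.12 to 7.90 in mutants with a median of 7.58. In controls it read 6.53 to 7.65 with a median of 7.21. Of the mutants, 3 lay above every control and the other 3 within the control range. The change of 0.33 (SE 0.17, 95% interval -0.032 to 0.693) was not called (limma adjusted p = 0.172), nor was it on either slide (0.20 and 0.50). The other Snai1 probe was above background on 0 arrays.

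Twist1, a basic helix-loop-helix factor of cranial mesenchyme, was not called. The mutants read 8.15 to 8.79 with a median of 8.50, and the controls 7.71 to 8.92 with a median of 8.63. Every mutant lay within the control range. The change was -0.022 (SE 0.16, limma adjusted p = 0.937), and its 95% interval ran from -0.366 to 0.322. The change was 0.12 on slide 1 and -0.030 on slide 2. With the slide as a block the sign turned (0.054), and no such fit called the gene.

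Prrx1, a paired-related homeobox factor of limb and craniofacial mesenchyme that is also used in pituitary progenitors, was the 1 gene called lower. Its brightest probe ranged from 6.28 to 6.68 in mutants with a median of 6.49, and from 6.42 to 7.36 in controls with a median of 6.93. All 6 mutants lay below the control median and 3 below every control. The change was -0.43 (SE 0.13), a 1.34-fold fall (limma adjusted p = 0.0221).

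The 4 Prrx1 probes did not read alike. A probe to another transcript record (ILMN_3057018) fell by 0.47 (limma adjusted p = 0.0228). It was detected above background in 3 of the 6 mutants and 9 of the 10 controls. A further probe (ILMN_2614463) changed by 0.10 and was not called (limma adjusted p = 0.562), although it carries the same transcript record as the brightest one. The remaining probe was above background on 0 arrays. The call was lost without mutant 1 (-0.38, limma adjusted p = 0.0552) or mutant 3 (-0.40, limma adjusted p = 0.0507). On slides 1 and 2 alone the change was -0.54 (limma adjusted p = 0.0518) and -0.28 (limma adjusted p = 0.477).

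Vim, the type III intermediate filament of mesenchymal cells, glia and many progenitors, was called higher over all arrays, and on slide 1 but not slide 2. It ranged from 9.89 to 10.78 in mutants with a median of 10.51, and from 9.56 to 10.36 in controls with a median of 10.03. The 4 mutants above every control were those of slide 1. The change over all arrays was 0.39 (SE 0.13), or 1.31-fold (limma adjusted p = 0.0358).

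On slide 1 the Vim change was 0.51 (limma adjusted p = 0.0177), and on slide 2 it was 0.048 (limma adjusted p = 0.904). With the slide as a block it was 0.31 and missed the threshold (limma adjusted p = 0.0592). The difference between the slides was itself not called (-0.46, SE 0.22, limma interaction adjusted p = 0.999, unadjusted p = 0.0508). The call over all arrays was lost without mutant 1, 2, 3 or 4 or control 5, 7 or 8, with changes from 0.32 to 0.40 and limma adjusted p-values from 0.0535 to 0.0969.

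**Figure D2:**
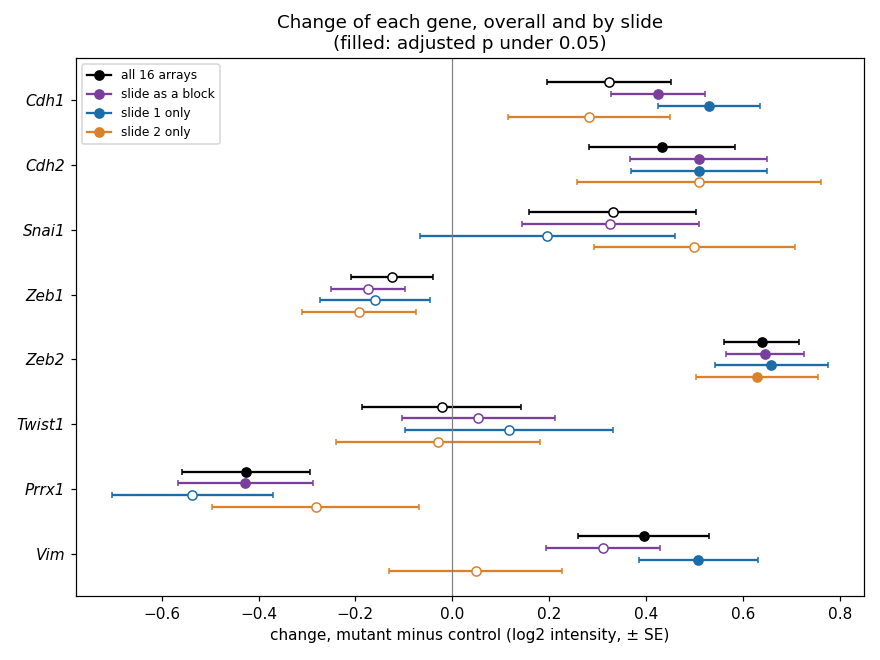
Change of each gene in mutants against controls on the log2 scale (x axis, with SE) over all 16 arrays, with the slide as a block, and on each slide alone. Filled points passed an adjusted p of 0.05; Zeb2 did so in all 4 fits, Cdh1 in 2 of them, and Vim moved from 0.51 on slide 1 to 0.048 on slide 2.

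Of 9 other intermediate filament genes tested, 1 was called higher (15.9% of all genes) and 2 lower (14%), with a median of -0.14. Des (desmin, the filament of muscle) rose by 0.67 (SE 0.14, limma adjusted p = 0.00127). The neuronal filaments Nefh and Ina were lower in mutants, with fitted differences of -1.41 and -1.27. They were above background in 1 and 3 of the 6 mutants, so the sizes rest in part on values at background. Slide 1 alone gave 1 call higher (8.4% of all genes) and 2 lower (9.75%), and slide 2 alone 0 (2.77%) and 1 (4.95%). Skeletal muscle markers were called higher in the same arrays, 7 of 7, and their summed intensity was 14390 to 21730 in mutants against 973 to 10580 in controls. Of the 10 controls, Myod1 was above background on 0, Myog on 1, Actc1 on 2 and Myh8 on 3. The control values of these genes were thus mostly at background. On slides 1 and 2 alone 7 and 4 of the muscle markers were called higher. The part of muscle in the Des or Vim change was not tested.

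Genes of epithelial identity were called higher more often than lower. A list of epithelial junction and keratin genes also held other epithelial genes, such as Itgb4, Prss8 and Rab25. Of its 26 genes tested, 11 were called higher, these 3 among them, and 1 lower (Pkp2, -0.25), with a median of 0.22. The shares for all genes were 15.9% and 14%. Itgb4, the integrin of hemidesmosomes, rose by 1.09 (SE 0.12, limma adjusted p = 2.72e-06), Cldn4 by 0.73 (SE 0.087) and Cldn6 by 0.61 (SE 0.074). On slides 1 and 2 alone 6 genes were called higher each time (8.4% and 2.77% of all genes), with medians of 0.19 and 0.31. The E-box shown above for Cldn4 and Cldn6 stood in all 7 of the 11 genes called higher that had a window, and in 8 of 10 genes not called.

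Of 10 transcription and splicing factors that keep cells epithelial tested, 8 were called higher (15.9% of all genes) and 0 lower (14%). Their median was 0.57, and 7 were called higher with the slide as a block (15.8%). Trp63, a p53 relative of basal epithelium, rose from 5.29 ± 0.74 in controls, where 2 of 10 arrays were above background, to 8.23 ± 0.44 in mutants, where 6 of 6 were. The fitted difference was 2.94 (SE 0.30, limma adjusted p = 8.3e-07), and its size rests on control values mostly at background. Grhl2, a grainyhead factor that activates Cdh1 in other epithelia, rose by 0.97 (SE 0.12, limma adjusted p = 4.98e-06), and Elf3 by 0.53 (SE 0.071). On slide 1 alone 7 were called higher (8.4% of all genes) with a median of 0.60. On slide 2 alone 4 were (2.77%), with a median of 0.50. Of 5 pituitary progenitor markers, 2 were called higher (Sox9 0.50 and Pitx1 0.46). Sox2 (0.54), Hesx1 (0.38) and Lhx3 (-0.086) were not called. The summed intensity of the 5 was 1818 to 2634 in mutants against 1509 to 2310 in controls, so the ranges overlapped. The part of these cells in the result was not tested.

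Adapters that tie cadherins to actin changed in both directions. Of 10 catenins and junction adapters tested, 4 were called higher (15.9% of all genes) and 2 lower (14%), with a median of 0.22. Ctnnd2, a catenin of neurons, fell by 0.77 on the log2 scale (limma adjusted p = 1.39e-05). Ctnnal1 rose by 0.46 (limma adjusted p = 0.000227) and Ctnna1, the alpha catenin that links E-cadherin to actin, by 0.35 (SE 0.071, limma adjusted p = 0.00108). Also called were Vcl (0.37), Nectin1 (0.32) and Plekha7 (-0.63). On slide 1 alone 2 were called higher (8.4% of all genes) and 1 lower (9.75%) with a median of 0.26. On slide 2 alone it was 0 (2.77%) and 1 (4.95%) with a median of 0.23. With the slide as a block 6 were called higher (15.8% of all genes) and 2 lower (14.5%).

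Of 14 other transition factors tested, 4 were called higher (15.9% of all genes) and 1 lower (14%), with a median of 0.14. Foxq1, a forkhead factor, went from 10.76 ± 0.43 to 7.57 ± 0.44 and so fell by 3.20 on the log2 scale (SE 0.20, limma adjusted p = 3.84e-09). Gsc, the homeobox factor goosecoid, rose by 2.36 (SE 0.26, limma adjusted p = 2.02e-06) and Yap1, an effector of the Hippo pathway, by 0.90 (SE 0.14). The others called higher were Sox9 and Tcf4 (0.42). On slide 1 alone 4 were called higher (8.4% of all genes) and 1 lower (9.75%), and on slide 2 alone 2 (2.77%) and 1 (4.95%). Corepressors and regulators that the Snail and Zeb proteins use showed no call among 10 tested by limma, against 29.9% of all genes in either direction. Their median was 0.11, and 3 had an unadjusted p under 0.05, as did at least 29.9% of all genes.

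**Figure D3:**
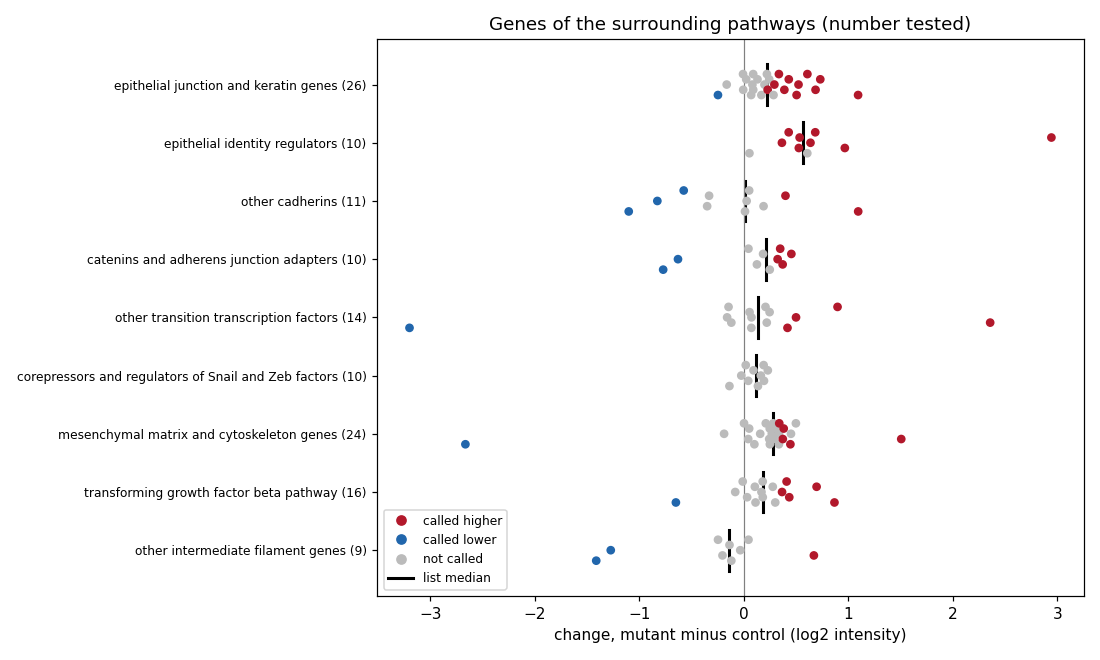
Change in mutants against controls on the log2 scale (x axis) of every tested gene in 9 surrounding gene groups, with the number tested in brackets and the median as a black bar. The epithelial identity regulators have the highest median (0.57), and Foxq1, Thy1 and Trp63 lie farthest from 0.

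Of 24 mesenchymal matrix and cytoskeleton genes tested, 5 were called higher (15.9% of all genes) and 1 lower (14%), with a median of 0.28. Thy1, a surface protein of fibroblasts that neurons also carry, went from 8.98 ± 0.60 to 6.32 ± 0.40 and so fell by 2.66 on the log2 scale (limma adjusted p = 3.11e-07). Mmp14, a membrane matrix protease, rose by 0.45 (SE 0.085) and Sparc, a matrix glycoprotein, by 0.34 (SE 0.078, limma adjusted p = 0.00289). The others called higher were Acta2 (1.51), Tnc (0.38) and Fstl1 (0.37). Tnc lost its call with the slide as a block (0.32, limma adjusted p = 0.0838) and without control 10 (0.39, limma adjusted p = 0.0501). On slide 1 alone 2 genes were called higher (8.4% of all genes) and 1 lower (9.75%) with a median of 0.41. On slide 2 alone it was 0 (2.77%) and 1 (4.95%) with a median of 0.26.

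Markers of cells around and within the gland were measured in the same arrays, in which 15.9% of all genes were called higher and 14% lower. Of 8 fibroblast markers 1 was called higher (Ogn, 0.43), with a summed intensity of 18420 to 28410 in mutants against 16720 to 26720 in controls. Ogn changed by 0.78 on slide 1 and by -0.037 on slide 2, and it lost its call with the slide as a block (0.43, limma adjusted p = 0.0572), under which Col1a2 was called (0.67). Of 4 cartilage and bone markers 1 was called higher (Col2a1, 0.81), and of 4 meningeal markers 1 (Aldh1a2, 0.54). Of 7 pericyte markers 2 were called higher (Acta2 1.51 and Notch3 0.55). On slide 2 alone 0 of these cartilage, meningeal and pericyte markers were called by limma, where 2.77% of all genes were called higher and 4.95% lower. None of 6 endothelial markers was called by limma, and 1 had an unadjusted p under 0.05, as did at least 29.9% of all genes. These tissues express Twist1, Prrx1 and Vim, and their part in the results for those genes was not tested. Of 4 pituicyte and glial markers 1 was called higher (Slc1a3, 0.34), and 0 were called on either slide alone. The part of glia in the Vim change was not tested.

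The transforming growth factor beta pathway is the best known inducer of the Snail, Zeb and Twist genes. Of 16 of its genes tested, 5 were called higher (15.9% of all genes) and 1 lower (Tgfbr3, -0.65, against 14%), with a median of 0.18. The ligand Tgfb2 rose by 0.70 (SE 0.11, limma adjusted p = 7.09e-05), the latent ligand binding protein Ltbp3 by 0.41 (SE 0.071) and the signal transducer Smad3 by 0.87 (SE 0.16, limma adjusted p = 0.000486). Ltbp1 and Tgfb3 were also called higher. Slide 2 alone gave 0 calls by limma among the 16 (all genes: 2.77% higher, 4.95% lower) and a median of 0.093. Slide 1 alone gave 4 called higher (8.4% of all genes), 1 lower (9.75%) and a median of 0.23.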

How the data were processed

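Illumina bead array values of 6 mutant and 10 control pituitaries were analysed. Per the file headers, the deposited raw table gives every probe an average bead intensity and a detection p-value on each array. The submitters' processing notes name GenomeStudio, with no version. The deposited value table of the series has further intensity values on a linear scale, with medians near 37.1, read from the values as background-subtracted and quantile-normalised. It was used as an alternative, as log2 with values under 16 set to 16. Raw intensities were corrected with limma's nec (offset 16), quantile-normalised and log2-transformed (R 4.3.3 with limma 3.58.1; Python 3.11.15 for permutations and figures). Probes with detection p under 0.01 on at least 6 arrays were kept. Genotype was fitted with lmFit and eBayes, and p-values were adjusted by the Benjamini-Hochberg method over all kept probes. The method was tested on simulated data with independent noise for each probe and array. The simulation had no slide effect and no array like control 10, so it does not cover these features. Precision is limited by the number of arrays.

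Probes were named through the platform annotation: 23978 carry 1 symbol, 0 carry several and 1719 have no name here. Of those with a symbol, 23962 matched the RefSeq gene table by Entrez identifier. Sequences come from RefSeq (GRCm38.p6). The text names every member, Insm1, the 3 genes with the smallest adjusted p of each pathway list with a called gene, the 3 genes most like each cadherin, and members of counts of 5 or fewer. Other genes named beside them were chosen after their values were seen. The members and lists were chosen with earlier results of these data known. Alternatives covered background correction, normalisation, filter, variance model, array weights, slide, replicate number, threshold, probe choice and single arrays left out; the slide block without control 10 and the list counts by slide were added after the data were seen.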

Additional observations from a re-analysis of the deposited data

Results flagged for a closer look

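Of 84 groups of arrays checked for a lone extreme value, 6 held one, and chance flags about 1 in 20. In control 10, Gsc read 8.02, Tgfb2 8.84, Trp63 7.26 and Yap1 9.75, each set apart from the next control by a share of the controls' range between 0.493 and 0.624. These 4 genes were called higher in mutants with control 10 included. Mmp14 read 11.94 in mutant 5, below the other mutants, and 11.40 in control 2, below the other controls.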

How the results depend on the processing

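Zeb2 kept its call and direction under all 16 alternatives tried and without any single array (0.44 to 0.71 over the former). Twist1, never called, turned in sign with the slide as a block (0.054), on slide 1 (0.12), with the slide block and without control 10 (0.078) and with the replicate block (0.14), and ranged from -0.11 to 0.047 with single arrays left out. The Cdh2 change minus the Cdh1 change was -0.021 on slide 1 and -0.025 with the dimmer probes, and 0.014 to 0.18 with single arrays left out; it was never called. Genes called higher fell from 3 to 1 (Zeb2) without a filter, on slide 2 and at an adjusted p under 0.01, where the share over all genes also fell, from 15.9% to 9.06%, 2.77% and 9.32%. They ranged from 1 to 3 with single arrays left out; genes called lower fell from 1 to 0 on slide 1, on slide 2 and at that threshold (14% of all genes to 9.75%, 4.95% and 9.79%), and ranged from 0 to 1. Cdh2 also lost its call with median scaling (0.42) and cyclic loess (0.38), at adjusted p-values of 0.051 and 0.0687. The cause was not tested.

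The labels number mutants and controls 1 to 6 alike. The deviations of same-numbered arrays correlated at 0.124 to 0.468 for 5 numbers and at 0.017 for the other. The numbers were to count as pairs only if all 6 exceeded 0.1, so the block is given here alone. With the replicate block, Cdh1 (0.50, adjusted p = 0.00117), Cdh2 and Zeb2 were called higher and Prrx1 lower, and Vim was not called (0.33, adjusted p = 0.088). Dim probes limit the rest: 5 of the 16 probes were too dim to be tested.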

Other observations

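Within the 10 controls, 28 pairs of the 8 genes were compared by correlation over arrays, and no pair passed adjustment over the 28 by either measure. By Pearson's r, 1 pair had an unadjusted permutation p under 0.05, and by Spearman's rho 3 pairs did: that pair, Cdh1 with Zeb1 (rho = -0.70, permutation p = 0.0305, adjusted p = 0.347) and Cdh2 with Zeb2 (rho = 0.66, permutation p = 0.0442, adjusted p = 0.347). The slides were pooled here, and control levels of Cdh1 differed between them. Within the 6 slide 2 controls, Pearson's r was -0.27 for Cdh1 with Zeb1 (exact permutation p = 0.672). For Cdh2 with Zeb2 it was 0.43 there (exact permutation p = 0.34). The pair found by both measures was Twist1 and Prrx1, with Pearson's r = -0.71 (permutation p = 0.0199, adjusted p = 0.481) and Spearman's rho = -0.82 (permutation p = 0.00566, adjusted p = 0.159). Without the 2 arrays farthest from the Twist1 median r was -0.47, so the relation rests in part on those arrays. Among the 6 controls of slide 2 it was -0.95, which is no separate support, since the pair was picked on arrays that include these. The relation holds for the brightest Prrx1 probe alone. The other Prrx1 probes, which did not read alike, were not compared with Twist1. No relation between Cdh1 and Cdh2 was detectable within controls (r = 0.29, permutation p = 0.408, adjusted p = 0.88; rho = 0.47, permutation p = 0.18, adjusted p = 0.593). Within the slide 2 controls their r was -0.49 (exact permutation p = 0.324).

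After subtracting each group's mean, the genes whose levels over the 16 arrays were most like those of Cdh1 were Cd24a (r = 0.91), Bmpr1a (0.90) and Ttk (0.90). Those most like Cdh2 were BC005537 (0.89), Asnsd1 (0.88) and Metap2 (0.87). These are the highest of 9682 genes and are given as a description, and the arrays share 2 slides. Of the 6, Ttk was called in the comparison of mutants with controls, falling by 0.67 on the log2 scale (limma adjusted p = 0.02).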
